A study of Mus musculus with 20 samples.

Results

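The circadian clock loop and its output genes were followed through 10 genes: Arntl, Per1, Per2, Per3, Ciart, Nr1d1, Nr1d2, Dbp, Tef and Hlf. All 10 were found by symbol among the 24394 gene symbols shared by the count tables of the 3 days. The genes were chosen by their CPM, the read count scaled to the library's total, in controls and in tumour-bearing mice at each day, the activator against the repressors and outputs. Their values are therefore a description, and no test of them is given.

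Arntl encodes BMAL1, which pairs with CLOCK or NPAS2 and switches on genes that carry an E-box. Among those genes are the Per and Cry repressors, which act back on BMAL1, and Nr1d1 and Nr1d2, which encode the REV-ERB nuclear receptors that repress Arntl through ROR elements. Dbp, Tef and Hlf encode output factors of the PAR bZIP family that act on D-boxes. In most tissues, muscle included, Arntl peaks when Nr1d1, Dbp and the Per genes are low, so their levels in a sample depend on the hour at which it was taken.

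Messenger RNA was sequenced from fibroadipogenic progenitors, stromal cells of skeletal muscle, obtained by cell sorting of the hindlimb muscle in male C57BL/6J animals. KPC mice had received 2 M cells (M for mega) of the pancreatic tumour line KPCY in 50 µL into the pancreas, and control mice had sham surgery without tumour cells. Day 14 had 3 control and 4 KPC libraries, day 21 had 3 of each, and day 26 had 4 control and 3 KPC libraries, from different mice at each day. The sort kept live nucleated SCA-1+ cells lacking CD31, CD45 and α7-integrin. Neither the age of the mice nor the hour of collection is given in the sources used here.

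Total counts ran from 12.94 to 26.43 M per library. The progenitor markers Ly6a, Pdgfra, Cd34 and Dcn were present in every library, with a summed level of 16330 to 25140 CPM, most of it Dcn. Cd34 and Ly6a were lower in KPC replicates 1 and 2 of day 26 than in all other libraries of that day. At days 14 and 21 the number that opens the library code differed between all control and all KPC libraries, so whatever it stands for and the tumour cannot be told apart. Of the day 26 libraries, 3 control and 2 KPC libraries shared the number 227. KPC replicate 3 of day 26 stood apart from KPC replicates 1 and 2, so the log2 fold changes of that day are also given without it. It carried the number 226 and those replicates 227, so its number and its difference from them cannot be told apart.

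The promoters of the genes show which of the clock elements lie near their starts. RefSeq (GRCm38.p6) promoter windows were found for 9 of the 10 genes, all but Per2, and the 250 bases before each start were searched on both strands. The letters were CACGTG for the E-box, TTANGTAA for the D-box and TGACGTCA for the cAMP response element, with N for any base. For the ROR and REV-ERB element they were TNGGTCA, a loose form, since the usual element has A or G at N. A ROR element below means a match to these loose letters only. The stretches below are shown because each holds a match to the E-box, the D-box or the ROR element. They are written 5′ to 3′ on the gene's strand with the element in capitals.
Per1, chr11:69098756-69098815, plus strand, E-box: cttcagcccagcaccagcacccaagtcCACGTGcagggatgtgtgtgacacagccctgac
Ciart, chr3:95882252-95882371, minus strand, 3 E-boxes: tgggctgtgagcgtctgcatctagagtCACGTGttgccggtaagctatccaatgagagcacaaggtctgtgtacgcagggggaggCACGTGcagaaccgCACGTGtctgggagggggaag
Tef, chr15:81811249-81811308, plus strand, E-box: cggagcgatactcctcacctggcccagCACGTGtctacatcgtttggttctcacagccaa
Per3, chr4:151044789-151044897, minus strand, 2 D-boxes: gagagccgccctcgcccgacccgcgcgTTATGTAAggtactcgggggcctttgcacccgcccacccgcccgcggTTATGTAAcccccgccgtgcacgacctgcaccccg
Arntl, chr7:113207238-113207317, plus strand, 2 ROR elements: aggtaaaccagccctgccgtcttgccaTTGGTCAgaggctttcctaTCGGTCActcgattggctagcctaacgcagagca

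In Ciart the 3 E-boxes began 116, 58 and 44 bases before the start, and in Per1 the single one began 166 bases before it. Tef held an E-box in each of its 2 windows. The 2 D-boxes of Per3 began 205 and 158 bases before its start. The loose ROR letters were also matched once in Per3 and once in Tef. In Arntl, Per3 and Tef alike these matches had T or C at N, not the usual A or G. Hlf held a cAMP response element 9 bases before its start. No match to the 4 elements lay in the windows of Nr1d1, Nr1d2 or Dbp. Of 32851 RefSeq windows of the same length, 6.02% held the E-box, 2.06% the D-box, 9.19% the ROR element and 1.55% the cAMP response element.

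Arntl, the activator (chr7:113207465-113314126, mm10), was higher in KPC at day 14 and lower at day 26. At day 14 its level was 66.1, 74.5 and 76.2 CPM in controls and 90.1, 102, 102 and 77.3 CPM in KPC. All KPC libraries lay above all controls of that day, replicate 4 only just, and the log2 fold change was 0.38 ± 0.12 (SE). At day 21 controls held 78.4, 88.3 and 57.8 CPM and KPC 46.8, 60.1 and 64.0 CPM. The groups overlapped at day 21, where the log2 fold change was -0.40 ± 0.16. At day 26 the level was 93.5, 90.8, 98.7 and 67.7 CPM in controls and 34.2, 51.5 and 50.1 CPM in KPC. Every KPC library of day 26 lay below all 10 control libraries of the study, and the log2 fold change was -0.95 ± 0.20.

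**Figure D1:**
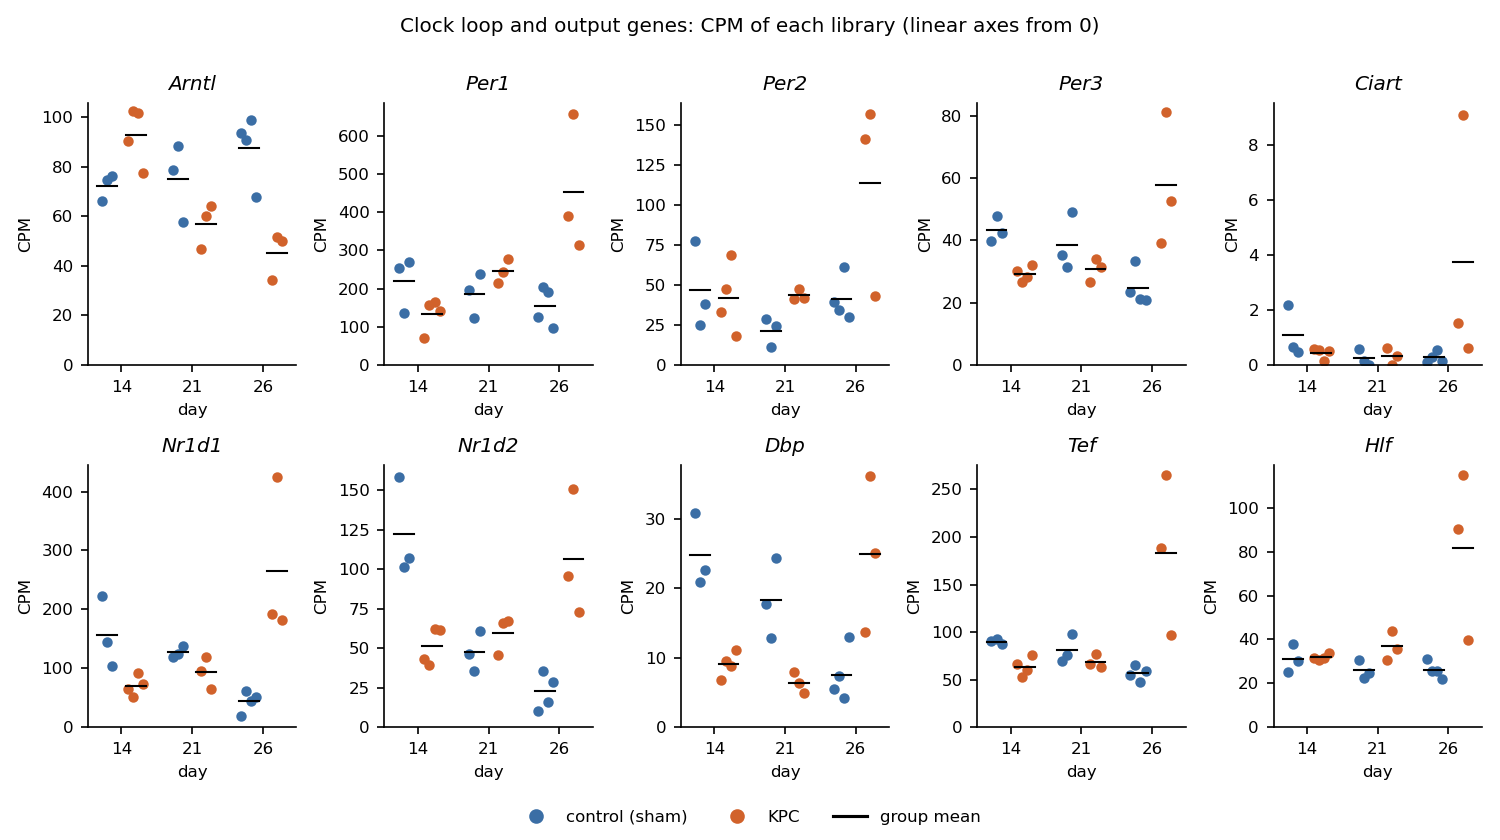
CPM of the 10 genes in each of the 20 libraries, with the day on the horizontal axis, controls in blue, KPC in orange and a line at each group mean; vertical axes are linear and start at 0. At day 26 the KPC libraries lie below the controls for Arntl, overlap them for Per2, and lie above them for the other 8 genes.

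Nr1d1 and Nr1d2, which encode REV-ERBα and REV-ERBβ, lay below the controls in KPC at day 14 and above them at day 26. Nr1d1 (chr11:98767932-98775333) had 223, 145 and 104 CPM in controls and 64.3, 51.1, 91.3 and 73.0 CPM in KPC at day 14. All KPC libraries of day 14 lay below the controls, with a log2 fold change of -1.16 ± 0.28. At day 26 Nr1d1 had 18.7, 61.0, 44.7 and 51.7 CPM in controls and 192, 425 and 181 CPM in KPC. The day 26 groups were far apart, with KPC higher by 2.58 ± 0.43 on the log2 scale, a fitted 6.00-fold ratio. At day 21 the levels overlapped, at 119, 124 and 138 CPM in controls and 95.6, 119 and 64.0 CPM in KPC.

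Nr1d2 (chr14:18204054-18239127) followed Nr1d1 at days 14 and 26. It had 159, 101 and 107 CPM in controls and 43.0, 39.4, 62.0 and 61.6 CPM in KPC at day 14, a log2 fold change of -1.24 ± 0.20. At day 26 its level was 10.2, 35.5, 16.1 and 28.8 CPM in controls and 96.0, 150 and 73.0 CPM in KPC, a log2 fold change of 2.23 ± 0.42. In neither of these days did the groups overlap. At day 21 controls held 46.3, 35.4 and 60.8 CPM and KPC 45.4, 66.1 and 67.2 CPM, and the groups overlapped (log2 fold change 0.32 ± 0.21, against -0.46 ± 0.19 for Nr1d1).

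**Figure D2:**
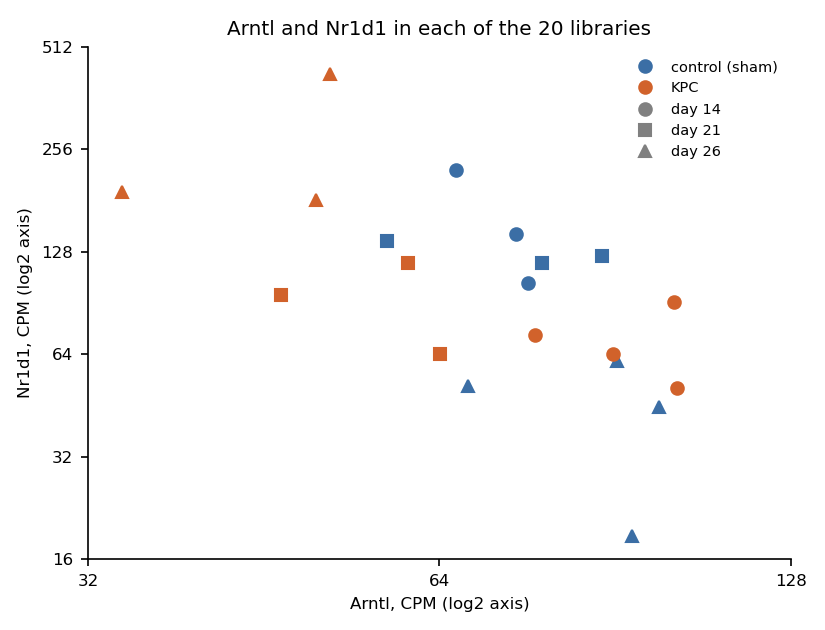
Arntl (horizontal) against Nr1d1 (vertical) in CPM on log2 axes, 1 point per library, controls blue and KPC orange, with circles for day 14, squares for day 21 and triangles for day 26. The 3 KPC libraries of day 26 lie at the upper left (Arntl 34.2 to 51.5 CPM, Nr1d1 181 to 425 CPM) and the 4 controls of day 26 at the lower right (67.7 to 98.7 and 18.7 to 61.0 CPM).

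The Per genes, which encode the PERIOD repressors, differed in how far they separated the groups. Per3 (chr4:151003652-151044665), whose promoter holds the D-boxes shown above, had 39.7, 47.9 and 42.2 CPM in controls and 30.1, 26.6, 28.2 and 32.2 CPM in KPC at day 14. These groups did not overlap, and KPC was lower (log2 fold change -0.55 ± 0.12). At day 26 it had 23.4, 33.4, 21.2 and 20.8 CPM in controls and 39.3, 81.2 and 52.6 CPM in KPC, with KPC higher (1.22 ± 0.26). At day 21 its levels overlapped, at 31.4 to 49.0 CPM in controls and 26.7 to 33.9 CPM in KPC (-0.34 ± 0.17).

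Per1 (chr11:69095217-69109960), which many acute signals also induce, had 253, 135 and 269 CPM in controls and 70.5, 157, 166 and 142 CPM in KPC at day 14. Its groups overlapped there, and control replicate 2 was as low as the KPC libraries (log2 fold change -0.70 ± 0.36). At day 21 the levels were 196, 123 and 238 CPM in controls and 215, 244 and 277 CPM in KPC, also overlapping (0.39 ± 0.22). At day 26 Per1 had 124, 204, 192 and 97.7 CPM in controls and 390, 657 and 314 CPM in KPC. All 3 KPC libraries of day 26 lay above every control library of the study, and the log2 fold change was 1.55 ± 0.33.

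Per2 (chr1:91415982-91459324) had the widest scatter of the Per genes. At day 14 it had 77.7, 24.8 and 38.0 CPM in controls and 33.4, 47.2, 68.9 and 17.8 CPM in KPC, with a log2 fold change of -0.16 ± 0.58 that became 0.41 without control replicate 1. At day 21 controls held 28.7, 11.5 and 24.3 CPM and KPC 40.9, 47.8 and 41.6 CPM, which did not overlap (1.00 ± 0.29). It was the only one of the 10 genes whose groups overlapped at day 26, with 39.4, 34.3, 61.1 and 30.1 CPM in controls and 141, 156 and 43.3 CPM in KPC. The overlap came from KPC replicate 3, and the log2 fold change was 1.46 ± 0.42 with it and 1.83 ± 0.25 without it.

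Ciart (chr3:95878503-95882251), which encodes the repressor CHRONO, was near the limit of detection in most libraries. At day 14 it had 46, 10 and 9 counts in controls and 13, 11, 2 and 13 counts in KPC, or 2.18, 0.668 and 0.469 CPM against 0.587, 0.544, 0.150 and 0.516 CPM. The groups overlapped, and the log2 fold change of -1.25 ± 0.68 became -0.28 without control replicate 1. At day 21 it had 15, 3 and 0 counts in controls and 12, 0 and 7 counts in KPC, and it did not pass the filter on low counts. At day 26 its levels were 0.121, 0.298, 0.548 and 0.144 CPM in controls and 1.51, 9.07 and 0.606 CPM in KPC. KPC replicate 2 alone held 154 counts, against 27 and 12 in replicates 1 and 3. The log2 fold change was 3.65 ± 0.97 with that library and 1.88 without it.

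Among the output genes, Dbp (chr7:45705088-45710203) was lower in KPC at days 14 and 21 and higher at day 26. It had 30.8, 20.8 and 22.7 CPM in controls and 6.77, 9.49, 8.83 and 11.0 CPM in KPC at day 14 (log2 fold change -1.44 ± 0.19). At day 21 it had 17.8, 12.8 and 24.3 CPM in controls and 7.98, 6.39 and 4.87 CPM in KPC (-1.52 ± 0.27). At day 26 the order was turned, with 5.52, 7.29, 4.15 and 13.0 CPM in controls and 13.6, 36.2 and 25.1 CPM in KPC (1.73 ± 0.43). The groups did not overlap at any of the 3 days, although KPC replicate 1 and control replicate 4 of day 26 were close. Dbp was the only one of the 10 genes that separated the groups at every day.

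Tef (chr15:81802421-81826863) had 90.7, 92.4 and 86.9 CPM in controls and 66.3, 52.5, 60.0 and 76.0 CPM in KPC at day 14, without overlap (log2 fold change -0.48 ± 0.12). At day 21 it had 69.5, 75.8 and 97.8 CPM in controls and 66.1, 77.3 and 63.3 CPM in KPC, which overlapped (-0.24 ± 0.14). At day 26 it had 55.3, 65.7, 47.8 and 59.4 CPM in controls and 188, 265 and 96.7 CPM in KPC, without overlap (1.68 ± 0.30). The gain at day 26 was smallest in KPC replicate 3.

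Hlf (chr11:90336536-90390895) differed little between the groups at day 14. It had 25.3, 37.9 and 30.2 CPM in controls and 31.3, 30.7, 31.6 and 33.7 CPM in KPC, a log2 fold change of 0.05 ± 0.14, while Dbp and Tef were lower in KPC. At day 21 it had 30.5, 22.4 and 24.8 CPM in controls and 30.7, 43.9 and 35.7 CPM in KPC, with no overlap by a margin of under 1 CPM (0.49 ± 0.17). At day 26 it had 30.9, 25.8, 25.5 and 21.7 CPM in controls and 90.5, 115 and 39.5 CPM in KPC (1.65 ± 0.32). All 3 KPC libraries of day 26 lay above every control library of the study, which held for no other gene of the 10 but Per1.

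**Figure D3:**
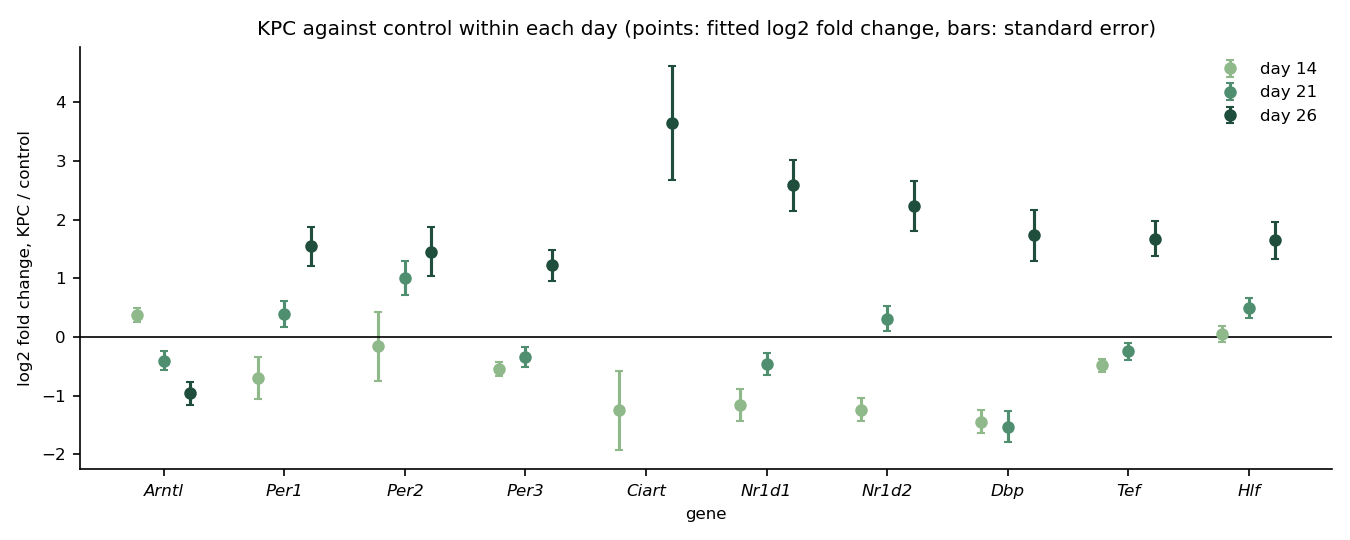
Fitted log2 fold change of KPC over control (vertical) for each of the 10 genes (horizontal) at day 14, day 21 and day 26 in darkening green; bars are standard errors, and Ciart has no value at day 21. Arntl goes from 0.38 at day 14 to -0.95 at day 26, and Nr1d1 from -1.16 to 2.58.

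Counted over the 10 genes at day 14, 1 lay wholly above the controls of its day (Arntl) and 5 wholly below (Per3, Nr1d1, Nr1d2, Dbp and Tef), where 7.03% and 6.27% of all genes did so. At day 21 2 lay above (Per2 and Hlf) and 1 below (Dbp), against 16.5% and 16.7% of all genes. At day 26 8 lay above and 1 below (Arntl), against 13.7% and 15.3% of all genes. The median log2 fold change of the 10 genes was -0.62 at day 14 and 1.66 at day 26, and over the 9 that passed the filter at day 21 it was -0.24. These shares are a description, since the same values chose the genes.

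Without KPC replicate 3 of day 26, the log2 fold change of that day was -1.06 ± 0.20 for Arntl, 2.77 ± 0.48 for Nr1d1, 2.42 ± 0.47 for Nr1d2, 1.73 ± 0.32 for Per1, 1.83 ± 0.25 for Per2 and 1.26 ± 0.29 for Per3. It was 4.12 ± 0.77 for Ciart, 1.70 ± 0.50 for Dbp, 1.97 ± 0.16 for Tef and 1.96 ± 0.15 for Hlf. These values were farther from 0 than with all libraries for 9 of the 10 genes, and that of Dbp was slightly nearer (1.73 ± 0.43 with all libraries). Within the libraries of number 227, 3 controls and 2 KPC, the log2 fold change was -1.15 ± 0.16 for Arntl, 2.87 ± 0.56 for Nr1d1, 2.57 ± 0.53 for Nr1d2, 1.58 ± 0.27 for Per1, 1.72 ± 0.25 for Per2 and 1.20 ± 0.32 for Per3. There it was 3.92 ± 0.87 for Ciart, 2.12 ± 0.41 for Dbp, 2.00 ± 0.17 for Tef and 1.90 ± 0.14 for Hlf, with Per3 alone nearer to 0 than in all libraries.

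The balance of the loop in a library was summarised as the mean log2 CPM of the 9 repressor and output genes minus the log2 CPM of Arntl. In controls this difference was -0.76 ± 0.43 at day 14 (SD, n = 3), -1.45 ± 0.53 at day 21 (SD, n = 3) and -2.15 ± 0.36 at day 26 (SD, n = 4). In KPC it was -1.86 ± 0.22 at day 14 (SD, n = 4), -1.05 ± 0.28 at day 21 (SD, n = 3) and 0.64 ± 0.73 at day 26 (SD, n = 3). The KPC libraries of day 26 lay at 0.87, 1.22 and -0.18, above all other libraries of the study. KPC minus control was therefore -1.10 at day 14, 0.40 at day 21 and 2.79 at day 26.

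**Figure D4:**
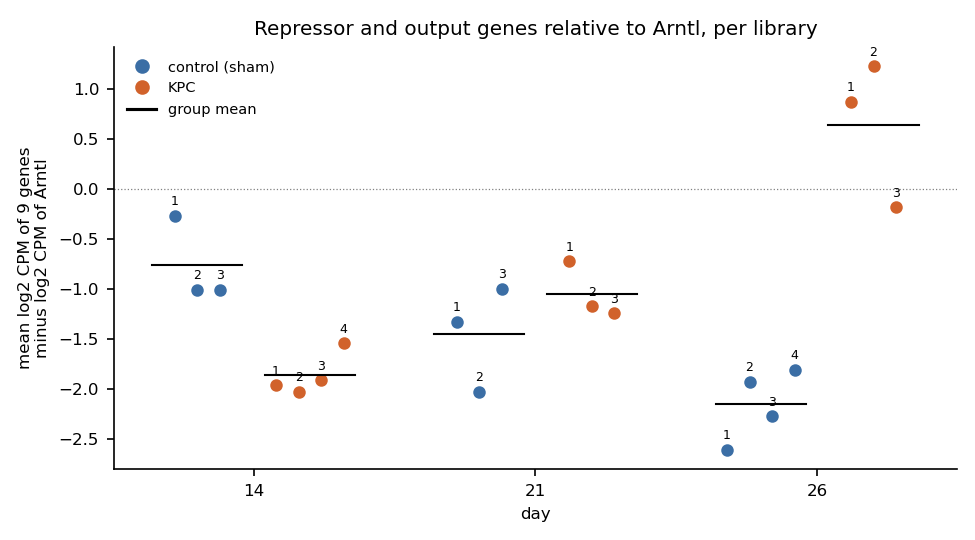
Mean log2 CPM of the 9 repressor and output genes minus log2 CPM of Arntl (vertical) for each library by day (horizontal); numbers are replicates, lines are group means, controls are blue and KPC orange. The control means lie lower at each later day, from -0.76 to -2.15, and the KPC means higher, from -1.86 to 0.64. Single control libraries of neighbouring days overlap.

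Between the controls of different days, several of the 10 genes had log2 differences as large as those between KPC and control. Nr1d2 in controls lay at 122 ± 31.5 CPM at day 14 (SD, n = 3) and at 22.6 ± 11.6 CPM at day 26 (SD, n = 4), a log2 difference of -2.43 ± 0.36. For Nr1d1 the control means were 157 ± 60.6 and 44.0 ± 18.1 CPM (SD, n = 3 and 4), a log2 difference of -1.83 ± 0.37. For Dbp they were 24.8 ± 5.29 and 7.48 ± 3.87 CPM, a log2 difference of -1.73 ± 0.35. For these 3 genes the KPC libraries of day 26 overlapped the range of the day 14 controls, and the mean of the KPC libraries was 266 CPM for Nr1d1, above the mean of those controls, 106 CPM for Nr1d2, below it, and 24.9 CPM for Dbp, level with it. Arntl in controls lay at 72.2 ± 5.44 CPM (SD, n = 3) at day 14 and 87.7 ± 13.7 CPM (SD, n = 4) at day 26, a log2 difference of 0.28 ± 0.17.

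Set against all 10 controls of the study, none of the 10 genes had all its KPC libraries outside the control range at day 14 or at day 21. At day 26, 2 genes lay wholly above that range (Per1 and Hlf) and 1 wholly below (Arntl). Tef, Per2 and Per3 each had 2 of 3 KPC libraries above it, Nr1d1, Dbp and Ciart had 1, and Nr1d2 had 0.

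The change of the KPC effect from day 14 to day 26 shares its controls with the comparisons above. It was -1.31 ± 0.25 on the log2 scale for Arntl, 3.76 ± 0.53 for Nr1d1, 3.48 ± 0.50 for Nr1d2, 3.19 ± 0.49 for Dbp and 2.18 ± 0.32 for Tef.

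Levels between the genes were compared as CPM per kilobase of exon. In day 14 controls Nr1d1 (51.1 ± 19.7) and Per1 (38.9 ± 13.0) led, then Nr1d2 (22.6 ± 5.83) and Tef (11.4 ± 0.354), all as SD with n = 3. Arntl (9.60 ± 0.722), Dbp (8.27 ± 1.77) and Per2 (7.99 ± 4.70) did not differ beyond their spread, nor did Hlf (4.66 ± 0.952) and Per3 (4.51 ± 0.434). In day 26 controls Arntl at 11.7 ± 1.82 CPM per kilobase (SD, n = 4) stood next after Per1 (27.4 ± 9.15) and Nr1d1 (14.3 ± 5.89). In KPC of day 26 Arntl at 6.02 ± 1.28 (SD, n = 3) was level with Per3 (6.00 ± 2.22). In the order of means only Ciart (1.65 ± 2.06) came after Arntl and Per3.

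Other genes of the clock were tested from 4 lists with 51 genes in all, by the edgeR quasi-likelihood test with Benjamini-Hochberg adjustment over all genes. At day 14 edgeR called 0 of the 50 tested, where it called 0.682% of all genes higher and 0.435% lower. At an unadjusted p under 0.05, 2 of the 50 were higher and 12 lower there, against 7.8% and 6.47% of all genes, and DESeq2 and limma-voom called 2 each (4.5% and 4.86% of all genes). At day 21 edgeR called 9 higher and 1 lower of 50 (6.38% and 6.11% of all genes), 10 in all, against 6 without control replicate 1 and 17 without KPC replicate 1. DESeq2 called 16 there and limma-voom 15 (17.2% and 17.7% of all genes).

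At day 26 edgeR called 0 of the 50 and 0% of all genes in either direction. At an unadjusted p under 0.05, 24 were higher and 3 lower, against 20.3% and 13.9% of all genes. DESeq2 called 21 of them and limma-voom 28, beside 21.4% and 34.3% of all genes. Without KPC replicate 3 edgeR called 32 at day 26 (51.6% of all genes), and it called 33 within the libraries of number 227 (47.1% of all genes). From day 14 to day 26 the KPC effect was called higher for 19 and lower for 1 of 51 (9.6% and 4.72% of all genes), 20 in all, against 7 without KPC replicate 2 and 31 without KPC replicate 3 of day 26. From day 21 to day 26 edgeR called 0% of all genes in either direction. Between controls, 7 of the 51 fell from day 14 to day 21 and 0 rose (6.85% and 1.67% of all genes), and 6 fell from day 14 to day 26 and 0 rose (5.52% and 1.43%). Between the controls of day 26 and day 21 edgeR called 0.0354% of all genes higher and 0% lower.

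The partners of BMAL1 did not follow one course. Clock lay at 94.9 to 118 CPM in day 14 KPC and at 77.0 to 82.7 CPM in day 26 KPC, inside the control range of 70.8 to 115 CPM except for 2 libraries of day 14. With all libraries Clock was called in no comparison with KPC (log2 fold change -0.20 ± 0.15 at day 26, edgeR adjusted p 0.355), and within the libraries of number 227 it was called lower (-0.31 ± 0.10, edgeR adjusted p 0.0474). Its level in controls fell from day 14 to day 21 (log2 difference -0.49 ± 0.12, edgeR adjusted p 0.0165). Npas2, which can stand in for Clock, had 85.8, 69.0, 80.2 and 49.1 CPM in day 26 controls and 23.6, 36.3 and 60.5 CPM in day 26 KPC. KPC replicate 3 overlapped the controls, and the difference of day 26 did not pass the test (log2 fold change -0.82 ± 0.33, edgeR adjusted p 0.128). Without that replicate it did (-1.27 ± 0.26, edgeR adjusted p 0.00434). The KPC effect on Npas2 fell by 1.23 ± 0.36 on the log2 scale from day 14 to day 26 (edgeR adjusted p 0.0307). Rora, an activator of Arntl, lay at 122, 190 and 105 CPM in day 26 KPC and 84.4 to 129 CPM in controls, and was not called (0.32 ± 0.23, edgeR adjusted p 0.318).

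The Cry genes, partners of the PERIOD proteins, differed from each other. Cry2 had 89.3, 89.1, 80.9 and 70.4 CPM in day 26 controls and 267, 376 and 110 CPM in KPC, with every KPC library above every control of the study. With all libraries the difference did not pass the test (log2 fold change 1.60 ± 0.35, edgeR adjusted p 0.0611), and without KPC replicate 3 it did (1.94 ± 0.16, edgeR adjusted p 4.4e-05). The KPC effect on Cry2 rose by 1.95 ± 0.37 on the log2 scale from day 14 to day 26 (edgeR adjusted p 0.00873). Cry1 was at 44.4, 37.9 and 15.4 CPM in day 26 KPC and 25.0 to 38.9 CPM in controls, and was called in no comparison (0.08 ± 0.33 at day 26, edgeR adjusted p 0.877).

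**Figure D5:**
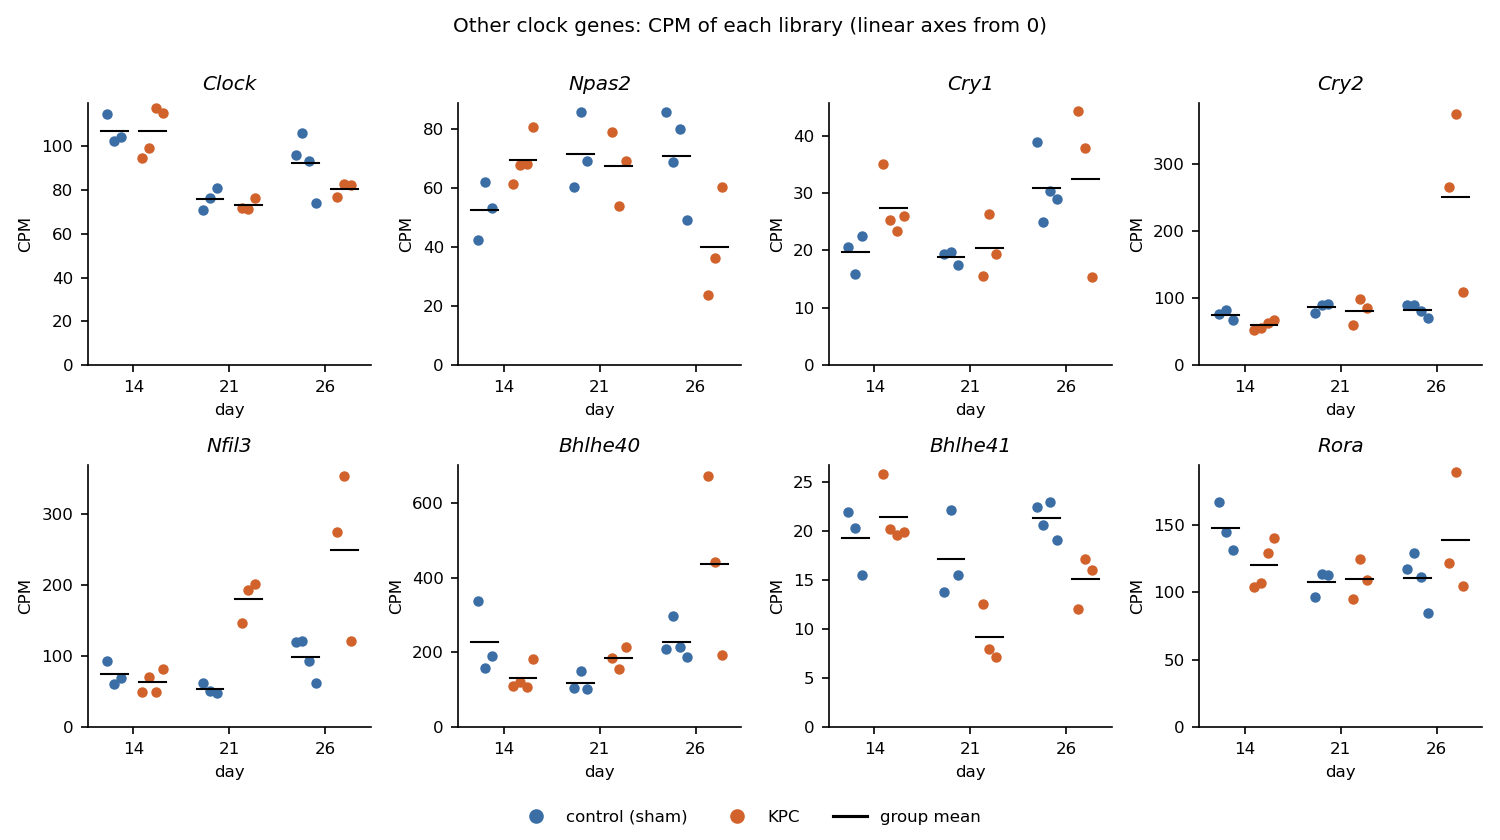
CPM of 8 clock genes outside the chosen 10 in each library by day, controls blue, KPC orange, lines at group means, linear axes from 0. Cry2 lies at 110 to 376 CPM in KPC at day 26 and at 70.4 to 89.3 CPM in the controls of that day, while Clock stays within 70.8 to 118 CPM in all 20 libraries.

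Nfil3, a repressor at the D-boxes on which Dbp, Tef and Hlf act, rose in KPC at day 21. It had 62.0, 50.6 and 47.7 CPM in controls and 147, 194 and 201 CPM in KPC (log2 fold change 1.75 ± 0.14, edgeR adjusted p 2.8e-05). Its KPC effect was larger at day 21 than at day 14 by 2.00 ± 0.44 (edgeR adjusted p 0.0441), the single call among the 51 genes in that comparison, which called 0.537% of all genes higher and 0.106% lower. At day 26 it had 120, 122, 93 and 62.5 CPM in controls and 275, 354 and 121 CPM in KPC. That difference did not pass the test with all libraries (1.33 ± 0.37, edgeR adjusted p 0.0725) and passed without KPC replicate 3 (1.64 ± 0.25, edgeR adjusted p 0.00111). From day 14 to day 26 its effect rose by 1.58 ± 0.42 (edgeR adjusted p 0.0237).

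Bhlhe40 and Bhlhe41, which encode E-box repressors, moved apart at day 21. Bhlhe40 rose, from 106, 149 and 102 CPM in controls to 184, 156 and 214 CPM in KPC (log2 fold change 0.63 ± 0.16, edgeR adjusted p 0.0299). Bhlhe41 fell, from 13.8, 22.2 and 15.6 CPM to 12.6, 7.93 and 7.20 CPM (-0.90 ± 0.26, edgeR adjusted p 0.0418). Both calls were lost when single libraries were left out, that of Bhlhe40 with adjusted p up to 0.132 and that of Bhlhe41 with adjusted p up to 0.198. Both were also lost with the replicate block (edgeR adjusted p 0.0521 and 0.0538), that of Bhlhe40 in the fit of all 6 groups (edgeR adjusted p 0.331) and that of Bhlhe41 by library size alone (edgeR adjusted p 0.0579). At day 26 neither passed with all libraries (0.94 ± 0.38 and -0.50 ± 0.17, edgeR adjusted p 0.13 and 0.0941). Without KPC replicate 3 both did (1.28 ± 0.23 and -0.57 ± 0.17, edgeR adjusted p 0.00219 and 0.0243). The KPC effect on Bhlhe40 rose by 1.75 ± 0.47 from day 14 to day 26 (edgeR adjusted p 0.0247). The changes from day 14 to day 26 of Npas2, Nfil3 and Bhlhe40 kept their direction but not their call without KPC replicate 1 of day 26 (edgeR adjusted p 0.0618, 0.0555 and 0.0755) or without KPC replicate 2 (0.0975, 0.0954 and 0.074), and that of Cry2 passed each time.

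Of 20 kinases, ligases and cofactors that act on clock proteins, 0 were called at any single day, with 5 lower at day 14, 5 higher at day 21 and 7 higher at day 26 at an unadjusted p under 0.05. At that threshold 6.47% of all genes were lower at day 14, 14.3% higher at day 21 (13.4% lower) and 20.3% higher at day 26. DESeq2 called 0, 2 and 5 of the 20, where it called 4.5%, 17.2% and 21.4% of all genes. Their KPC effect was called higher at day 26 than at day 14 for 6 of 20 (9.6% of all genes). Csnk1e, a casein kinase that marks PERIOD proteins for breakdown, had the smallest p of these (1.31 ± 0.25, edgeR adjusted p 0.00873). In controls 3 of the 20 fell from day 14 to day 21 (6.85% of all genes) and 3 from day 14 to day 26 (5.52%), led both times by the kinase subunit gene Csnk2a1 (-0.50 ± 0.13 and -0.59 ± 0.12, edgeR adjusted p 0.0188 and 0.0041).

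Of 20 genes known for daily cycles in many mouse tissues, 7 rose in KPC at day 21 and 0 fell, where 6.38% of all genes rose and 6.11% fell. The smallest p was that of Pim3, a kinase gene, at 27.1 ± 3.72 CPM in controls and 97.5 ± 18.2 CPM in KPC (SD, n = 3 each, log2 fold change 1.84 ± 0.16, edgeR adjusted p 3.8e-05). Their effect was called higher at day 26 than at day 14 for 10 of 20 (9.6% of all genes), first the membrane protein gene Tspan4 (1.42 ± 0.27, edgeR adjusted p 0.00873). Coq10b, which serves coenzyme Q in mitochondria, fell in controls from day 14 to day 21 (-1.90 ± 0.34, edgeR adjusted p 0.0018) and to day 26 (-1.32 ± 0.31, edgeR adjusted p 0.0131). In those control comparisons 3 of 20 fell each time, against 6.85% and 5.52% of all genes.

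Per1 and several of the cycling genes also answer glucocorticoids and acute stimulation, and both kinds of marker differed between the groups. Of 7 glucocorticoid receptor targets, of which Klf9 and Tsc22d3 are also in the list of cycling genes, 4 rose at day 21 (6.38% of all genes). At day 26 edgeR called 0 of them and 0% of all genes, with 6 of the 7 higher at an unadjusted p under 0.05 (20.3% of all genes), and DESeq2 called 6 (21.4% of all genes). Of 7 immediate-early genes, which stress of handling also induces, 7 rose at day 21 (6.38% of all genes). In controls 4 of the 7 rose from day 14 to day 26 (1.43% of all genes). Their part in the values of the clock genes was not tested.

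Markers of the sorted progenitors differed between the groups. Cd34, a surface marker of the progenitors, lay at 2536 to 2735 CPM in day 26 controls and at 346, 324 and 1839 CPM in KPC replicates 1 to 3. Ly6a, which encodes the SCA-1 used in the sort, lay at 1028 to 1460 CPM in those controls and at 586.5, 526 and 1204 CPM in KPC. Of the 4 progenitor markers edgeR called 0 at day 26, with 1 lower at an unadjusted p under 0.05, while DESeq2 called 0 and limma-voom 2 lower. At day 21 Cd34 fell in KPC (log2 fold change -1.14 ± 0.15, edgeR adjusted p 5.4e-04) and Dcn rose (0.49 ± 0.14, edgeR adjusted p 0.0403). KPC replicates 1 and 2 of day 26, lowest in Cd34 and Ly6a, also had the highest Per1, Per2, Tef and Hlf of the study, and the part of that shift in the clock values was not tested.

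Markers of other muscle cells differed as well. At day 14 the summed level of 10 endothelial markers was 411 to 485 CPM in controls and 536 to 706 CPM in KPC, that of 5 glial markers 18.1 to 31.5 and 50.1 to 102 CPM, and that of 4 tenocyte markers 147 to 170 and 233.8 to 657.8 CPM. Tek supplied most of the endothelial sum in day 14 controls and did not rise (mean 373, and 361 CPM for KPC). The sum therefore understates the other endothelial markers. Of the 10, 9 were higher in KPC and 0 lower at an unadjusted edgeR p under 0.05, with a median log2 fold change of 1.65. After adjustment edgeR called 2 of them higher and DESeq2 9 (0.682% of all genes higher by edgeR, 4.5% called by DESeq2). At day 26 the 6 leukocyte markers summed to 12.7 to 15.8 CPM in controls and to 209, 32.6 and 14.6 CPM in KPC replicates 1 to 3. The 4 adipocyte markers summed to 0.0963 to 0.627 CPM in controls and to 85.4, 3.12 and 0.606 CPM in those KPC libraries. KPC replicate 2 had the highest Nr1d1, Per1, Tef and Hlf of the study. Its endothelial, mural and glial sums (319, 41.5 and 16.9 CPM) were below all controls of its day. Most of the endothelial sum of those controls was Tek, at 420 ± 49.4 CPM (SD, n = 4), against 242 ± 116 CPM in KPC (SD, n = 3). Of the 10 endothelial markers edgeR called 0 at day 26. At an unadjusted edgeR p under 0.05, 5 were higher and 1 lower in KPC (20.3% and 13.9% of all genes), with a median log2 fold change of 2.02. The KPC libraries were unlike in this, with endothelial sums of 957, 319 and 424 CPM in replicates 1 to 3, against 385 to 548 CPM in controls. Only replicate 1 lay above the controls, and its mural and glial sums (355 and 66.8 CPM) were also the highest of day 26. In such bulk samples fewer cells of a type and less RNA per cell cannot be told apart, and the part of other cells in the clock values was not tested.

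The genes most like the 10 in pattern were sought outside all clock lists among genes whose mean log2 CPM was 1 or more. Likeness was the smaller of the Pearson correlations, over 10 control and over 10 KPC libraries, with the mean z-score of the 10 genes in which Arntl had its sign turned. The 6 most alike were Prpf18, a splicing factor (r = 0.89 in controls and 0.94 in KPC), Pptc7 (0.90 and 0.87), Ist1 (0.87 and 0.94), Mtmr12 (0.92 and 0.87), Elf2 (0.87 and 0.88) and Tbx2 (0.86 and 0.86). The 4 most opposite were Serpinb1a, a protease inhibitor (-0.90 and -0.89), Aoc3 (-0.88 and -0.88), B4galt7 (-0.89 and -0.88) and Snap47 (-0.89 and -0.88). The libraries share their days and differ in depth, so these values describe the libraries only.

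Exons of Dbp share 539 bases (18% of exon length) with Sphk2 on the opposite strand, and those of Nr1d1 share 263 bases (8.55%) with Thra. Whether the counting used strand is not given in the sources used here, so reads in those stretches may belong to either gene. No exon overlap was found for the other 8 genes. Among the clock genes outside the 10, Cry2 shares 4.67% of its exon length and Bhlhe40 2.51% with a gene on the opposite strand.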

How the data were processed

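The authors deposited raw counts, 1 whole number per gene symbol and library, for 20 libraries. The submitters' processing notes name bcl2fastq 2.20, Bowtie, STAR, DESeq2 1.36.0, R 4.2.1 and build mm10, with no role for each. Which program counted, with which annotation and strand setting, is not given in the sources used here.

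CPM were computed over all 20 libraries with TMM scaling, and log2 CPM with a prior count of 2. KPC was compared with control within each day by edgeR 4.0.16 in R 4.3.3 (TMM, filterByExpr minimum count 10, minimum total 15, robust quasi-likelihood F test, 2-sided, Benjamini-Hochberg over all genes, threshold 0.05). Differences between days and between controls came from a single edgeR fit of all 6 groups. Log2 fold changes of a day use that day's own scaling, and SE is the size of the log2 fold change over the root of the F statistic. DESeq2 1.42.0, limma-voom (limma 3.58.1), library-size scaling, no filter, and leaving out libraries were alternatives. The functions were tested on simulated data.

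The 10 genes and all lists were chosen with earlier results of these data known. Named beside them are Clock, Npas2, Cry1, Cry2, Nfil3, Bhlhe41 and Rora, every called gene of the 2 arm lists, the called kinase and cycling gene with the smallest p in each comparison, and the 6 most alike and 4 most opposite genes. Positions come from GENCODE vM21. The labels call the libraries biological replicates. Counts carry no molecular identifiers.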

Additional observations from a re-analysis of the deposited data

Results flagged for a closer look

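In groups of 4 libraries a single value can stand apart from the others by Dixon's test, and chance flags about 1 in 20 groups. Every chosen gene, every other clock gene plotted by library and the difference from Arntl were searched in day 14 KPC and day 26 controls. Some flags are therefore to be expected by chance alone. Ciart was at 0.150 CPM in KPC replicate 3 of day 14, from 2 counts, against 0.516 to 0.587 CPM in the other 3 libraries. Bhlhe41 was at 25.8 CPM in KPC replicate 1 of day 14, against 19.6 to 20.2 CPM in the others.

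Among the genes of the 2 arm lists outside the chosen 10, the KPC effect differed between days by the edgeR test of the difference for 4. From day 14 to day 21 that was Nfil3, by 2.00 on the log2 scale. From day 14 to day 26 those were Npas2 (-1.23), Cry2 (1.95), Nfil3 (1.58) and Bhlhe40 (1.75). Over all 4 clock lists that comparison called 19 higher and 1 lower of 51 genes (9.6% and 4.72% of all genes).

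For 6 of the chosen genes all KPC libraries lay on one side of the controls at day 14 and on the other at day 26. The difference was not tested, since these values chose the genes. The log2 fold change at day 26 was -0.95 for Arntl after 0.38 at day 14, and 1.22 for Per3 after -0.55. It was 2.58 for Nr1d1 after -1.16, 2.23 for Nr1d2 after -1.24 and 1.68 for Tef after -0.48. For Dbp it was 1.73 at day 26 after -1.44 at day 14 and -1.52 at day 21.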

How the results depend on the processing

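No called result of the other clock genes plotted by library reversed under any alternative run. The remaining called genes were only counted, and their directions were not compared. The sign of the log2 fold change was also kept by all 10 genes at day 26 and by the 9 tested at day 21. At day 14 Per2 and Hlf changed sign in some, with ranges of -0.51 to 0.41 and -0.09 to 0.21. Counts of calls depended on the tool, and the cause was not tested. At day 14, 149 genes were called, against 278 without the low-count filter, 600 by DESeq2, 649 by limma-voom and 2 in the fit of all 6 groups. Leaving out single libraries gave 40 to 255 there, and for the other clock genes 0 in all libraries became 1, 2 and 2 by the first 3 of these and 0 to 3 with a library left out. At day 21, 1643 genes were called, against 436 in the fit of all 6 groups and 717 to 2644 with a library left out. The 10 other clock genes called at day 21 became 16 by DESeq2, 5 in the fit of all 6 groups and 6 to 17 with a library left out.

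At day 26, 0 genes were called, against 2817 by DESeq2, 4519 by limma-voom, 6287 within library code number 227, 4889 in the fit of all 6 groups and 0 to 6972 with a library left out, the highest without KPC replicate 3. The other clock genes called there were 21, 28, 33 and 27 in these settings and 0 to 32 with a library left out. The change from day 14 to day 21 had 91 calls and 391 by DESeq2 (other clock genes 1 and 6). That from day 21 to day 26 had 0 calls, 1 by library size, 57 by DESeq2 (other clock genes 0, and 1 by DESeq2) and 0 to 3201 with a library left out (0 to 15). That from day 14 to day 26 had 2024 calls and 466 to 5900 with a library left out (7 to 31 other clock genes). Controls of day 26 against day 21 had 5 calls and 39 by DESeq2.

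Replicate numbers did not pair the samples: same-numbered libraries correlated at -0.11 to 0.15 in their deviations from the group means. The replicate block gave 369 calls in day 14 libraries, 1545 in those of day 21 and 0 in those of day 26, of which 3, 9 and 0 were other clock genes. Leaving out single libraries moved KPC minus control of the 9 genes against Arntl within -1.22 to -0.85 for day 14, 0.12 to 0.63 for day 21 and 2.50 to 3.20 for day 26. Leaving out Ciart was added after the data were seen and gave the same signs.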

Other observations

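Values of 1 further clock gene are given because they were noticed after the data were seen. Arntl2, the paralog of Arntl, was at 4.41, 7.07 and 9.20 CPM in KPC and at 9.83 to 12.3 CPM in controls of day 26, without overlap, and was not called (log2 fold change -0.69 ± 0.27, edgeR adjusted p 0.119).

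KPC replicate 1 of day 26 had the highest summed adipocyte markers, at 85.4 CPM. It had the lowest Arntl (34.2 CPM) and Npas2 (23.6 CPM) and the highest Cry1 (44.4 CPM) of the 20 libraries.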
